A study of Bos taurus with 22 samples.

Results

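MFSD11 and NNT are 2 of the 27570 genes in a count table of the jejunal mucosa of 22 Holstein steers. They were chosen by their counts, which were higher in steers given glucagon-like peptide 2 (GLP-2), an intestinal hormone that stimulates growth of the mucosa, and by a spread between steers that appeared small. Both criteria were read from these same libraries, so the levels with and without GLP-2, and the spread, are given as a description without a test.

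All steers received raw corn starch into the abomasum, the last stomach compartment, at 3.94 g/kg body weight per day for 7 days. Control steers (n = 5) received water into the abomasum and subcutaneous injections of the vehicle alone, which is saline of 9 g/L NaCl with bovine serum albumin (BSA) at 5 g/L. GLP-2 steers (n = 5) received water and 100 µg/kg body weight per day of GLP-2 in that vehicle. Casein steers (n = 6) received casein, a milk protein, at 1.30 g/kg body weight per day with the vehicle, and casein + GLP-2 steers (n = 6) received both. Steers had been allotted to treatments within replicate blocks of similar body weight, and the replicate number of a steer is its block. Each library is scraped mucosa of 1 steer and so holds epithelium together with lamina propria and any lymphoid tissue, and fewer cells of a type cannot be told apart from less RNA per cell.

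MFSD11 encodes a membrane protein of the major facilitator superfamily, related to UNC93 proteins, whose substrate is not established. It counts as an orphan solute carrier. NNT encodes nicotinamide nucleotide transhydrogenase, an enzyme of the inner mitochondrial membrane that uses the proton gradient of respiration to pass a hydride from NADH to NADP+. The NADPH formed keeps the glutathione and thioredoxin systems of the mitochondrion reduced, so NNT joins energy metabolism to protection from peroxides. LCT and MS4A1 serve as reference points: LCT is lactase, a brush border disaccharidase of enterocytes on the villus, and MS4A1 is the B cell surface protein CD20, abundant in lymphoid follicles.

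MFSD11 (ENSBTAG00000018260) spans chr19:55014709-55043048 on the minus strand of ARS-UCD1.2, with 4530 bases of exon sequence in the deposited table. NNT (ENSBTAG00000011885) spans chr20:31154175-31245748, also on the minus strand, with 4274 bases. Both are protein coding, and RefSeq lists 3 transcripts for MFSD11 and 4 for NNT in assembly ARS-UCD2.0. Counts per gene do not separate these isoforms.

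Both genes were well covered. MFSD11 had between 321 and 1693 counts in a steer and NNT between 688 and 7016, in libraries of 8809666 to 28447810 assigned counts with a median of 12028560.5. Values below are CPM, counts relative to the library size scaled by the trimmed mean of M-values (TMM), unless another scale is named. No library was a copy of another, and no steer of a treatment stood apart from its group in either gene by Dixon's criterion.

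MFSD11 was lowest in the control steers, at 36.0, 44.5, 25.4, 48.1 and 33.6 CPM in replicates 1 to 5. In the casein steers it was 47.9, 57.4, 38.2, 51.0, 44.7 and 60.4 CPM in replicates 1 to 6. Both treatments were injected with the vehicle, and their ranges overlapped between 38.2 and 48.1 CPM, with control replicate 3 the lowest of all 22 steers.

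The GLP-2 steers held MFSD11 at 56.4, 71.1, 68.2, 76.5 and 71.6 CPM in replicates 1, 3, 4, 5 and 6. In the casein + GLP-2 steers the values were 89.4, 72.4, 76.5, 64.7, 68.2 and 61.6 CPM in replicates 1 to 6. Every GLP-2 steer lay above every control steer, and every casein + GLP-2 steer above every casein steer. Such a separation upward was found for 0.74% of 13928 genes between GLP-2 and control and for 0.524% between casein + GLP-2 and casein. Across the infusions 1 GLP-2 steer, replicate 1 at 56.4 CPM, fell within the range of the casein steers, so that 10 of 11 GLP-2 injected steers exceeded the highest BSA injected steer.

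NNT was 91.5, 140.5, 54.3, 129.5 and 80.8 CPM in the control steers, replicates 1 to 5. The casein steers had 103.8, 81.2, 72.2, 132.6, 111.0 and 162.3 CPM in replicates 1 to 6. Control replicate 3 was again the lowest of all steers, and the control and casein ranges coincided over most of their length.

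In the GLP-2 steers NNT reached 223.8, 302.6, 142.5, 116.2 and 238.7 CPM in replicates 1, 3, 4, 5 and 6. The casein + GLP-2 steers had 229.9, 170.7, 234.1, 197.9, 176.3 and 144.3 CPM in replicates 1 to 6. Replicates 4 and 5 of GLP-2 and replicate 6 of casein + GLP-2 lay within the range of the BSA injected steers, and the other 8 of 11 lay above it. NNT therefore overlapped between injections, within water and within casein, where MFSD11 overlapped only when the infusions were pooled.

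**Figure D1:**
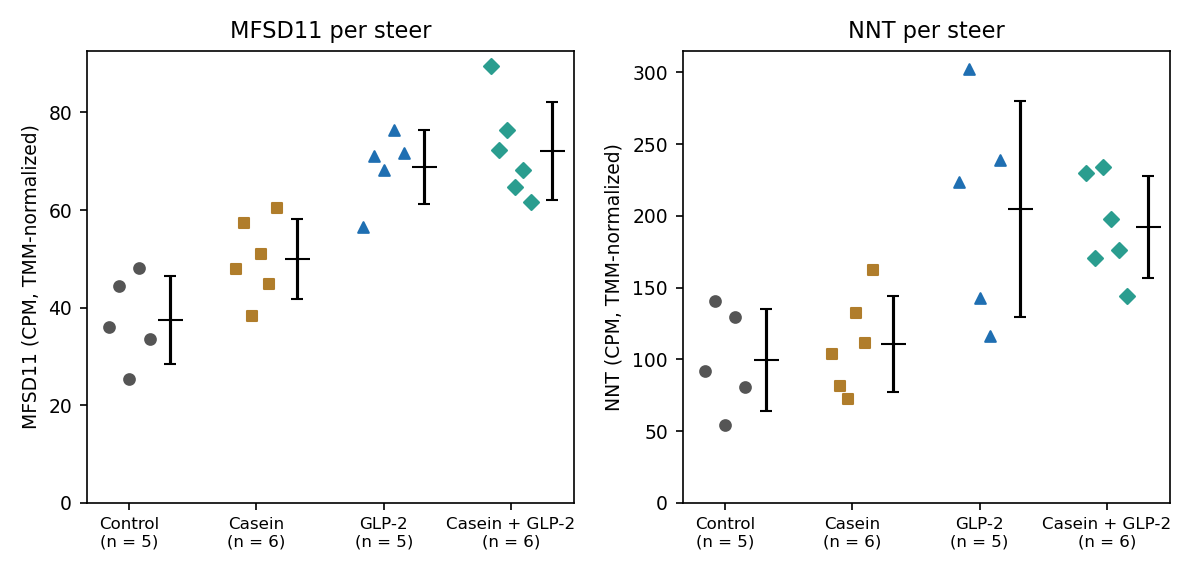
CPM of MFSD11 (left) and NNT (right) in each steer (points, in order of replicate) by treatment, with the treatment mean and SD (black bars, n = 5, 6, 5 and 6). The MFSD11 points of GLP-2 and casein + GLP-2 lie above those of their BSA counterparts, while 2 GLP-2 steers have NNT at 116.2 and 142.5 CPM, among the BSA injected steers.

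Averaged over infusions, MFSD11 was 70.6 ± 8.71 CPM under GLP-2 against 44.3 ± 10.4 CPM under BSA (SD over n = 11 steers per injection), a log2 fold change of 0.67 (SE 0.126) in edgeR, or 1.59-fold. NNT was 197.9 ± 54.3 CPM under GLP-2 against 105.4 ± 33.0 CPM under BSA (SD over n = 11 steers per injection), a log2 fold change of 0.91 (SE 0.183), or 1.88-fold. Both belong to the 715 genes higher with GLP-2 at an adjusted p of at most 0.05 (edgeR quasi-likelihood test with Benjamini-Hochberg adjustment), 5.13% of the 13928 genes tested, and this placing is part of how they were chosen. Another 1166 genes, 8.37%, were lower. Genes called in either direction made up 13.5% of those tested, 1881 in all, and 689 when the replicate block was added to the model.

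In each infusion the difference had the same sign. MFSD11 was higher by 0.89 (SE 0.166) on the log2 scale with GLP-2 than in the control steers, and by 0.50 (SE 0.151) with casein + GLP-2 than with casein. The corresponding log2 differences of NNT were 1.06 (SE 0.276) and 0.77 (SE 0.251). Leaving out any 1 of the 22 steers kept the pooled log2 fold change of MFSD11 between 0.61 and 0.73 and that of NNT between 0.82 and 0.99.

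On the FPKM scale, which divides by gene length and so allows levels of different genes to be compared, NNT was the more abundant transcript. It had 45.8 ± 12.5 FPKM with GLP-2 and 24.5 ± 7.62 FPKM with BSA, against 15.4 ± 1.76 and 9.71 ± 2.30 FPKM of MFSD11 (SD, n = 11 each). The ratio of NNT to MFSD11 in FPKM ranged from 1.499 to 4.51 over the 22 steers. Over all steers 82.2% of the genes tested had a lower mean FPKM than NNT and 58.2% a lower mean than MFSD11.

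The 2 genes did not share the small spread for which they were picked. After removal of the treatment means, log2 CPM of MFSD11 had a residual SD of 0.249, and 6.57% of 13928 genes had a smaller one. NNT had a residual SD of 0.460, close to the median gene at 0.515, with 42.1% of genes below it. For comparison LCT had a residual SD of 1.57 and MS4A1 of 2.31, with 96.8% and 99.7% of genes below them. Either gene thus varied far less between steers than these 2 reference genes, as most genes did. The mean log2 CPM of MFSD11 and NNT was above that of 74.4% and 90.8% of genes, and spread was not compared among genes of like level. Within injections, the residual SD of MFSD11 around its treatment means was 0.181 in the GLP-2 and 0.302 in the BSA injected steers, and that of NNT 0.428 and 0.490.

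Marker genes of several cell types differed between injections in these libraries, to be read beside 5.13% of all genes called higher and 8.37% called lower. Among 21 villus enterocyte markers, each with counts in every steer, all 21 were higher with GLP-2 by log2 fold change and 3 passed the adjusted threshold in edgeR, and their summed level ranged from 29651 to 144081 CPM with GLP-2 and from 3427 to 89223 CPM with BSA. Of 14 B cell follicle markers tested, 13 were called lower with GLP-2, and the 16 on the list summed to 62.4 to 128.8 CPM with GLP-2 and to 86.2 to 2470 CPM with BSA. PAX5, FCRL3 and FCER2 of that list had 0 counts in at least 1 steer, and no marker of it was at 0 in all steers of an injection. Of 15 crypt proliferation markers 8 were called lower and 0 higher, and that list summed to 291.8 to 1002 CPM with GLP-2 and to 303.5 to 1512 CPM with BSA. Plasma cell markers were called lower in 3 of 9 and T cell markers in 1 of 13, 1 of 10 macrophage and 1 of 9 enteroendocrine markers were called higher, and no goblet cell or smooth muscle marker passed. A single called gene in a list this short is close to the share over all genes.

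The fitted differences of MFSD11 and NNT were smaller once these markers entered the model. With the mean log2 CPM of the follicle markers as a covariate, the log2 difference between GLP-2 and BSA was 0.37 (SE 0.122) for MFSD11 and 0.50 (SE 0.182) for NNT. With the villus enterocyte markers in its place it was 0.48 (SE 0.133) and 0.52 (SE 0.163). Both differences stayed above 0, which is a description only, since the genes were chosen on this contrast. With either covariate 0 genes of the table passed the adjusted threshold in edgeR, so neither MFSD11 nor NNT did. The part of cell composition in the difference was not tested.

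**Figure D2:**
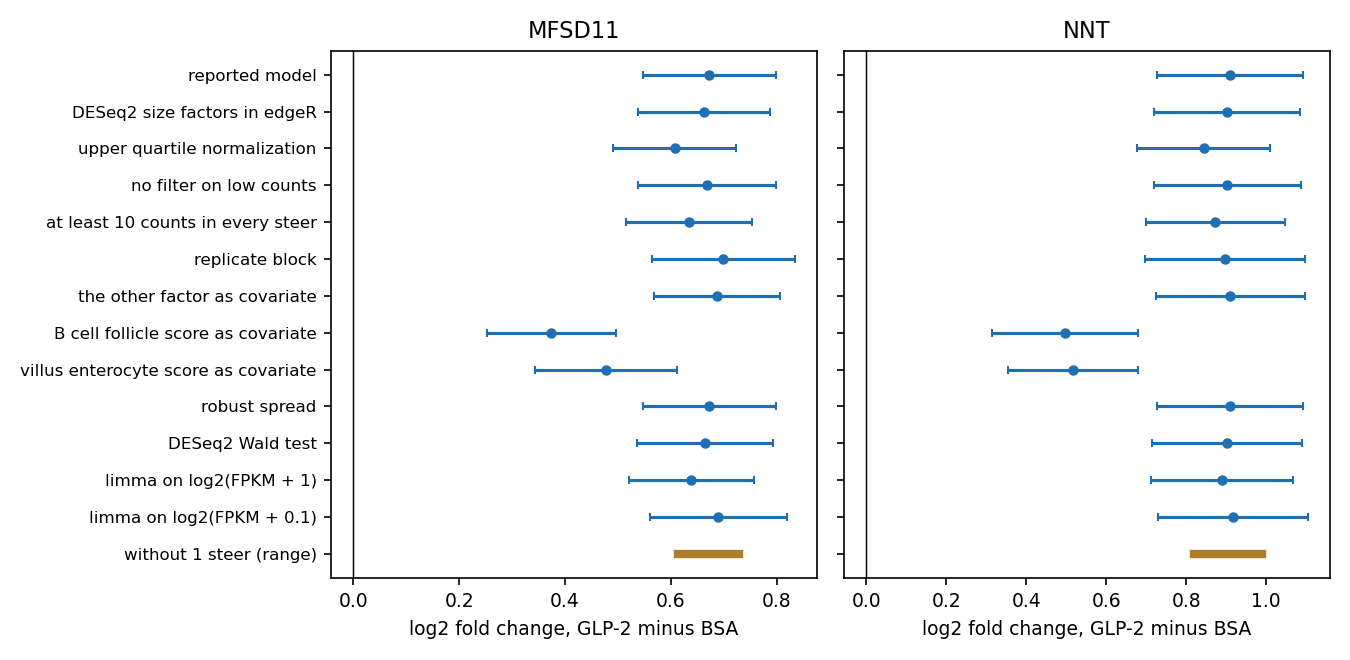
Log2 fold change (GLP-2 minus BSA, x axis) of MFSD11 (left) and NNT (right) under the reported edgeR model and each alternative (points, with SE as bars), and the range over the 22 fits without 1 steer (brown). The points with the follicle score as covariate, 0.37 and 0.50, lie lowest, followed by those with the villus score, 0.48 and 0.52, and the others reach up to 0.70 and 0.92.

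Casein against water asks whether the infused protein altered the 2 genes, a contrast that played no part in choosing them. MFSD11 was 61.0 ± 14.5 CPM in 12 casein infused and 53.1 ± 18.3 CPM in 10 water infused steers, a log2 fold change of 0.21 with a 95% interval from -0.15 to 0.58 (adjusted p = 0.994, edgeR). NNT was 151.4 ± 53.8 CPM with casein and 152.0 ± 78.6 CPM with water, a log2 fold change of 0.01 with an interval from -0.52 to 0.53 (adjusted p = 1.000, edgeR). Neither passed the threshold, nor did any other gene by edgeR, 0% of 14096, although 474 genes (3.36%) reached 0.05 before adjustment and the DESeq2 Wald test called 5. The intervals leave room for a change of NNT in either direction by up to about 1.45-fold.

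Within the BSA injected steers, the casein steers averaged 49.9 ± 8.20 CPM of MFSD11 (SD, n = 6) and the control steers 37.5 ± 9.04 CPM (SD, n = 5), a log2 difference of 0.45 with an interval from 0.12 to 0.78. This difference did not pass the threshold in edgeR (adjusted p = 0.820), and its unadjusted p of 0.0101 in edgeR stands among 854 genes, 5.66% of 15086, that reached 0.05 before adjustment. Without control replicate 3, the steer with the least MFSD11, the log2 difference was 0.34. NNT differed by 0.19 on the log2 scale with an interval from -0.35 to 0.73 (adjusted p = 0.982, edgeR).

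Among the GLP-2 injected steers, casein + GLP-2 and GLP-2 alone could not be separated. The log2 difference was 0.06 for MFSD11, with an interval from -0.27 to 0.38, and -0.10 for NNT, with an interval from -0.64 to 0.44 (both adjusted p = 0.995, edgeR). Leaving out GLP-2 replicate 3, which had the most NNT of all steers, turned that value of NNT to 0.10. The casein by GLP-2 interaction was -0.39 for MFSD11, with an interval from -0.86 to 0.07, and -0.29 for NNT, with an interval from -1.06 to 0.48 (both adjusted p = 0.996, edgeR). The data thus do not show that GLP-2 acted differently on either gene with and without casein, and they do not exclude it.

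Whether the 2 genes followed each other, LCT or MS4A1 from steer to steer was examined within each injection, so that the difference between injections plays no part. Pearson's r and Spearman's rho of log2 CPM were computed over 11 steers each, with 2-sided permutation tests of 100000 resamples, and p-values were adjusted over 18 relations, 8 of which concern body weight and library size. In the BSA injected steers LCT ranged from 86.5 to 3380 CPM with a median of 278.4, and MS4A1 from 0.793 to 372.4 CPM with a median of 28.8. In the GLP-2 injected steers LCT ranged from 682.4 to 7511 CPM, with a median of 3271, and MS4A1 from 0.356 to 9.32 CPM, with a median of 2.69. Lactase thus overlapped between the injections, and MS4A1 spanned a much narrower range with GLP-2. Counts of MS4A1 were low there, at 5 to 120 in a steer, against 9 to 6479 with BSA. The part of counting noise in its r values was not tested.

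In the BSA injected steers NNT rose with LCT (r = 0.82, adjusted permutation p = 0.0239, rho = 0.85, adjusted permutation p = 0.0202, n = 11). An r with LCT this high was found for 4.07% of 13926 other genes. LCT fell into a lower set of 6 steers, up to 8.12 log2 CPM, and an upper set of 5, from 9.97 log2 CPM. Within the lower 6, r was -0.19 (exact permutation p = 0.778). The upper 5 are too few for an r, but NNT there was 111.0 CPM in the steer with the least LCT and 162.3 and 140.5 CPM in those with the most, and all 5 had more NNT than any of the lower 6. Without casein replicate 6 and control replicate 2, the steers farthest from the median, r was 0.71, and the adjusted permutation p was then 0.121.

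NNT fell with MS4A1 in the same steers (r = -0.81, adjusted permutation p = 0.0239, rho = -0.84, adjusted permutation p = 0.0202, n = 11). An r with MS4A1 this low was found for 3.03% of other genes. Within the 7 steers below the widest gap in MS4A1, r was -0.59 (exact permutation p = 0.158). Without casein replicate 4 and control replicate 2, r was -0.79 with an adjusted permutation p of 0.0931. Removing the means of water and casein left r at 0.82 with LCT and -0.81 with MS4A1. Among the 6 casein steers alone r was 0.91 with LCT and -0.83 with MS4A1, both with an adjusted exact permutation p of 0.1 over 18 relations within casein infused steers.

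For MFSD11 in the BSA injected steers, r with LCT was 0.58 (adjusted permutation p = 0.188, rho = 0.65, adjusted permutation p = 0.121, n = 11) and that with MS4A1 was -0.69 (adjusted permutation p = 0.0654, rho = -0.64, adjusted permutation p = 0.121, n = 11). Neither passed the threshold, though on the FPKM scale r with MS4A1 was -0.75 (adjusted permutation p = 0.0373), and without control replicate 2, the steer with the least MS4A1, r with MS4A1 was -0.80 (adjusted permutation p = 0.0294). Within the 6 steers of low LCT r was 0.40 (exact permutation p = 0.442), and within the 7 steers below the gap in MS4A1 it was 0.17 (exact permutation p = 0.721). Without the pair of steers farthest from the median, r was 0.53 with LCT and -0.83 with MS4A1. Whether r differed between MFSD11 and NNT was not tested.

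**Figure D3:**
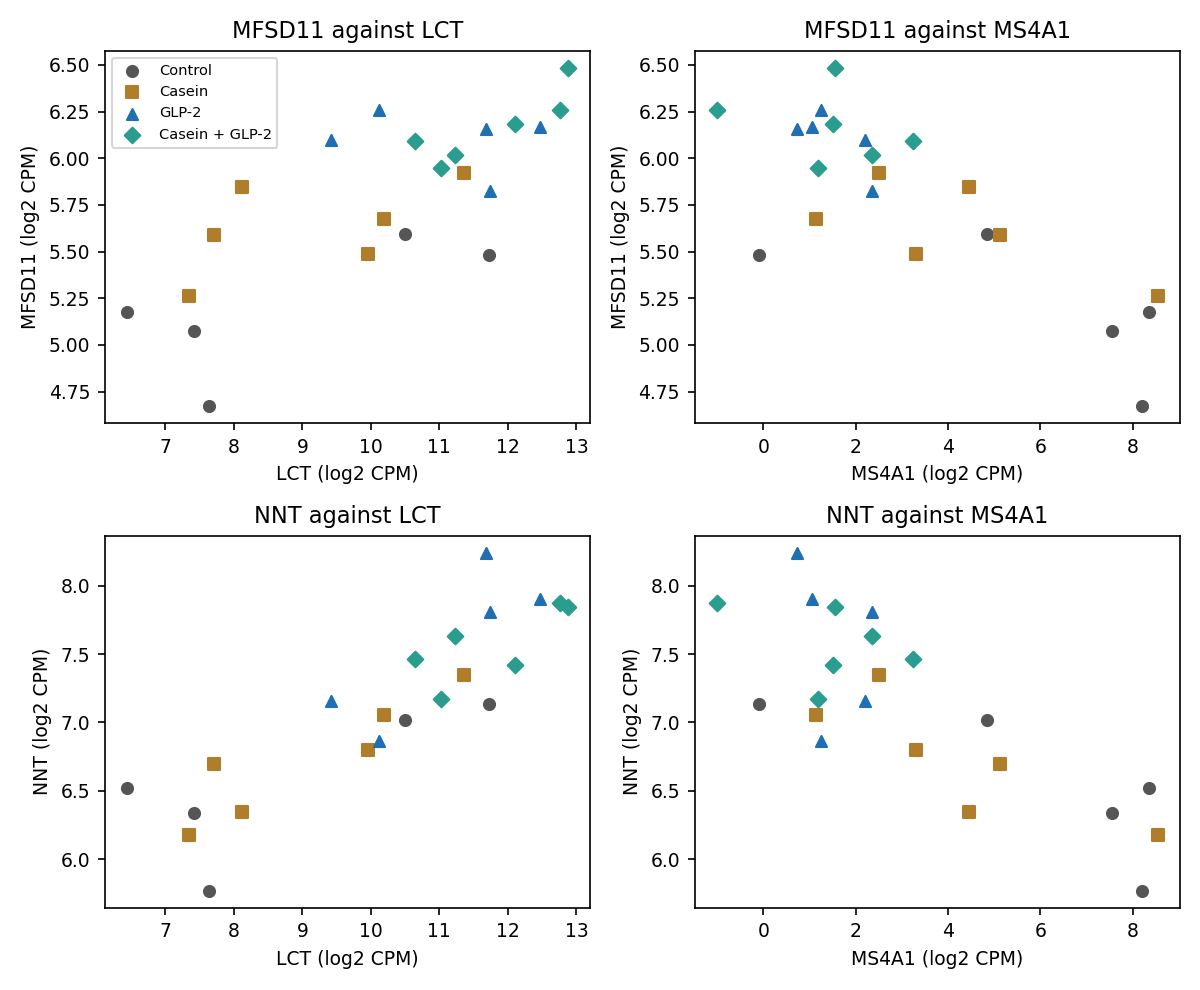
Log2 CPM of MFSD11 (upper row) and NNT (lower row) against log2 CPM of LCT (left) and MS4A1 (right), 1 point per steer, coloured by treatment. NNT of control and casein steers is higher in the 5 steers with LCT of at least 9.97 log2 CPM than in all 6 at or below 8.12, and all GLP-2 injected steers lie at MS4A1 of 3.24 log2 CPM or less.

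In the GLP-2 injected steers the relation of NNT to LCT missed the threshold (r = 0.73, adjusted permutation p = 0.0505, rho = 0.73, adjusted permutation p = 0.0857, n = 11). It passed without GLP-2 replicate 3 (r = 0.83, adjusted permutation p = 0.0226) and without casein + GLP-2 replicate 2 (r = 0.78, adjusted permutation p = 0.0383), and without the 2 steers farthest from the median, GLP-2 replicates 4 and 5, r was 0.51. It also passed with block means removed (r = 0.79, adjusted permutation p = 0.0257), with infusion means removed (r = 0.78, adjusted permutation p = 0.0208) and on the FPKM scale (r = 0.73, adjusted permutation p = 0.0426). The r of NNT with MS4A1 was -0.29 (adjusted permutation p = 0.535, rho = -0.39, adjusted permutation p = 0.385), or -0.18 without the 2 farthest steers. For MFSD11 r was 0.36 with LCT (adjusted permutation p = 0.470, rho = 0.41, adjusted permutation p = 0.385) and -0.39 with MS4A1 (adjusted permutation p = 0.469, rho = -0.45, adjusted permutation p = 0.328). With block means removed the latter became -0.74 and passed the threshold (adjusted permutation p = 0.0371). Without the 2 farthest steers the 2 values became 0.68 and -0.41, and among the 6 casein + GLP-2 steers alone they were 0.85 (adjusted exact permutation p = 0.1) and -0.29 (adjusted exact permutation p = 0.625).

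MFSD11 and NNT rose together in the BSA injected steers (r = 0.76, adjusted permutation p = 0.0396, rho = 0.67, adjusted permutation p = 0.121, n = 11). Over the 11 fits without 1 steer, r lay from 0.58 to 0.93. The relation lost the threshold without each of 9 of the 11 steers, all but casein replicate 2 and control replicate 2. In those fits r was 0.69 without casein replicate 6, 0.58 without control replicate 3 and from 0.74 to 0.76 otherwise. Without casein replicate 6 and control replicate 3, the steers farthest from the median of NNT, r was 0.41. Among the 6 casein steers alone r was 0.58 (adjusted exact permutation p = 0.312). In the GLP-2 injected steers r was 0.11 (adjusted permutation p = 0.802, rho = 0.11, adjusted permutation p = 0.754, n = 11), or 0.34 without GLP-2 replicates 3 and 5. Among the 6 casein + GLP-2 steers alone r was 0.77 (adjusted exact permutation p = 0.171). Of the 5 GLP-2 steers, too few for an r, replicate 5 had the most MFSD11 and the least NNT. Whether the relation differed between these treatments was not tested. The steer with the most MFSD11, casein + GLP-2 replicate 1, had 229.9 CPM of NNT, and the steer with the most NNT, GLP-2 replicate 3, had 71.1 CPM of MFSD11, the median of its injection. The difference between injections in r was not tested. No relation of either gene to body weight or to the library total passed the threshold over 11 steers, with r between -0.35 and 0.50, although without GLP-2 replicate 4 NNT with library total did in the GLP-2 injected steers (r = 0.79, adjusted permutation p = 0.0297). Among the 6 casein + GLP-2 steers alone, r with library total was 0.97 for MFSD11 and 0.86 for NNT, and r of MFSD11 with body weight was -0.78, each with an adjusted exact permutation p of 0.1. Without the 2 farthest steers of the GLP-2 injected, MFSD11 with library total had r = 0.74. The part of library size in the relations among these steers was not tested.

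**Figure D4:**
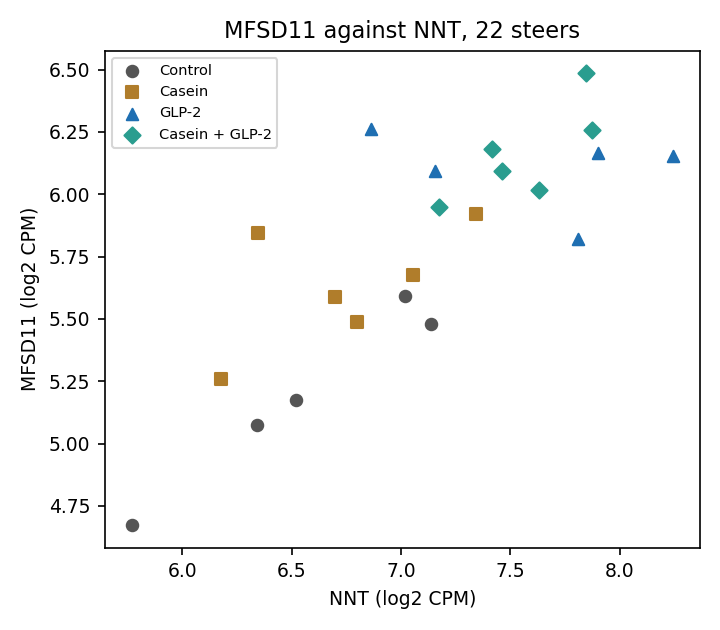
Log2 CPM of MFSD11 (y axis) against that of NNT (x axis) in 22 steers, coloured by treatment. The control and casein points rise together (r = 0.76, n = 11), with control replicate 3 at the lower left, while r was 0.11 (n = 11) over the GLP-2 and casein + GLP-2 points and 0.77 over the 6 casein + GLP-2 points alone.

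The genes whose log2 CPM was most like that of MFSD11 over the 22 steers were SULF2, an extracellular sulfatase of heparan sulfate, with r = 0.90, MOGAT1, a monoacylglycerol acyltransferase, with 0.90, GALNT12, which starts mucin-type O-glycosylation, with 0.89, NOL4L with 0.89 and YES1, a kinase of the Src family, with 0.88. These values are a description and include the difference between injections, since both kinds of steer entered. With the treatment means removed, the 5 most alike were VDAC3, a channel of the outer mitochondrial membrane, with r = 0.90, NOL4L, ERLIN1 and GALNT12 with 0.89 each, and ARL6IP5, a protein of the endoplasmic reticulum, with 0.88. NOL4L and GALNT12 stood in both groups of 5. VDAC3 itself had a log2 fold change between GLP-2 and BSA of 0.13 (SE 0.158), beside 0.67 of MFSD11.

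For NNT the most alike were ATP8B1, a phospholipid flippase, with r = 0.94, TMEM19 with 0.94, PCSK5, a proprotein convertase, with 0.93, PAQR3, a Golgi membrane protein, with 0.92, and MCU, the pore of the mitochondrial calcium uniporter, with 0.92. With the treatment means removed they were SELENOI, an ethanolamine phosphotransferase, and LRRC19 with r = 0.91 each, ATP8B1 with 0.91, and PAQR3 and PRRC1 with 0.89 each. Many genes were alike in this sense, since 3544 of 13927 had r above 0.5 with NNT over all steers and 3170 with MFSD11. MFSD11 and NNT themselves had r = 0.81 with each other, a value that includes the difference between injections on which both were chosen. With the treatment means removed r was 0.57. NNT then ranked 1798 among 12405 genes with a symbol in likeness to MFSD11, and MFSD11 ranked 1890 in likeness to NNT.

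The surroundings of the 2 genes were read from the deposited coordinates, within 100 kb on either side. MFSD11 lies back to back with SRSF2, which encodes a serine/arginine-rich splicing factor and is transcribed from the opposite strand (chr19:55043351-55047192), with 302 bases between the annotated genes and no overlap. SRSF2 was 255.9 ± 39.2 CPM under GLP-2 against 313.3 ± 54.7 CPM under BSA (SD over n = 11 steers per injection), a log2 fold change of -0.29 (SE 0.121, adjusted p = 0.0938, edgeR) that did not pass the threshold and was opposite in sign to that of MFSD11. Opposite signs were found for 47.9% of 459 tested pairs of protein-coding genes lying back to back within 1000 bases. The libraries kept strand, but whether the counting used it is not given in the sources used here.

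Other named neighbours of MFSD11 did not pass the threshold either. METTL23, a methyltransferase gene 3947 bases away, had a log2 fold change of 0.23 (SE 0.178), JMJD6, a hydroxylase gene 9671 bases away, 0.00 (SE 0.118), and MGAT5B, a glycosyltransferase gene, 0.42 (SE 0.647). ENSBTAG00000051982, a protein-coding gene without a symbol 38394 bases from MFSD11, was called lower with GLP-2, by -2.15 on the log2 scale (SE 0.710, adjusted p = 0.0468, edgeR). Its level was 2.12 ± 2.00 CPM under GLP-2 against 9.41 ± 10.3 CPM under BSA (SD over n = 11 steers per injection). It was singled out after its values were seen.

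NNT has no gene as close. PAIP1, a translation factor gene 21095 bases away, was 69.3 ± 8.94 CPM under GLP-2 against 64.2 ± 8.49 CPM under BSA (SD over n = 11 steers per injection), a log2 fold change of 0.11 (SE 0.0953, adjusted p = 0.413, edgeR). C20H5orf34 and TMEM267 had log2 fold changes of -0.12 (SE 0.170) and 0.42 (SE 0.230), and neither passed the threshold. None of the tested neighbours of either gene passed the threshold for casein against water in edgeR, where 0% of all genes did.

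To place NNT among the enzymes of its pathway, 4 gene lists of NADPH, NAD and thiol metabolism were described without NNT, with 2 further lists for the family of MFSD11 and for the SR proteins to which SRSF2 belongs. Of 89 genes tested over the 6 lists, 10 or 11.2% passed the adjusted threshold between GLP-2 and BSA in edgeR, 5 higher and 5 lower, beside 13.5% of all genes. With the replicate block 2 passed. The number rested on single steers, and ranged from 2 without casein + GLP-2 replicate 1, casein + GLP-2 replicate 3 or control replicate 3 to 25 without control replicate 2.

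None of the 8 other tested genes on the list of mitochondrial NADPH supply passed the threshold, and their median log2 fold change was -0.16, beside 0.01 over all genes. The list was written broadly, with genes of NAD metabolism beside those that form NADPH. Its median therefore does not describe the NADPH-forming enzymes alone. The most abundant were GLUD1, glutamate dehydrogenase, at 747.6 ± 190.6 CPM under GLP-2 against 549.3 ± 156.3 CPM under BSA (log2 fold change 0.44, SE 0.181), and IDH2, the mitochondrial NADP-dependent isocitrate dehydrogenase, at 518.0 ± 190.4 and 384.5 ± 129.2 CPM (0.43, SE 0.208). Of the 8, 4 had positive and 4 negative log2 fold changes, from -0.62 for ALDH4A1 to 0.44.

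Among 12 genes of cytosolic NADPH supply, IDH1, the cytosolic NADP-dependent isocitrate dehydrogenase, rose with GLP-2, to 492.2 ± 134.4 CPM from 283.7 ± 110.0 CPM under BSA (SD over n = 11 steers per injection), a log2 fold change of 0.80 (SE 0.214, adjusted p = 0.0252, edgeR). No other gene of the list passed the threshold, and the median of the list was 0.05. The 1 of 12 genes called stands beside 13.5% of all genes called in either direction. This list too was written broadly, and not all of its genes form NADPH in the cytosol. Its median therefore does not describe such enzymes alone.

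Of 13 genes of NAD synthesis, KYNU, kynureninase, rose (log2 fold change 0.61, SE 0.198, adjusted p = 0.0453, edgeR) and KMO, kynurenine 3-monooxygenase, fell (-2.75, SE 0.671, adjusted p = 0.0222, edgeR). These act at successive steps of tryptophan breakdown toward NAD. The 2 of 13 genes called stand beside 13.5% of all genes called in either direction. Without 1 steer, the number of this list past the threshold ranged from 1 to 3. KMO was 1.23 ± 0.482 CPM under GLP-2 against 8.36 ± 11.3 CPM under BSA (SD over n = 11 steers per injection), so its level was low and varied widely without GLP-2. The list of the glutathione and thioredoxin systems also holds CAT, catalase, and SOD1, a superoxide dismutase. Its median thus covers more than those systems. Of its 26 tested genes, 13 had positive and 13 negative log2 fold changes, with a median of -0.01. Beside 13.5% of all genes, 1 of the 26 passed: SLC25A39, the mitochondrial glutathione carrier, was lower by -0.46 (SE 0.141, adjusted p = 0.0366, edgeR). Without 1 steer, the number of this list past the threshold ranged from 0 to 7.

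The relatives of MFSD11 had positive log2 fold changes in 12 of 17 tested genes, with a median of 0.34. MFSD1 rose from 45.8 ± 12.1 CPM under BSA to 68.9 ± 18.1 CPM under GLP-2 (SD over n = 11 steers per injection), a log2 fold change of 0.59 (SE 0.162, adjusted p = 0.0262, edgeR). MFSD6 and MFSD9 also rose, by 0.88 (SE 0.270, adjusted p = 0.0375, edgeR) and 0.77 (SE 0.255, adjusted p = 0.0462, edgeR), and the others did not pass the threshold in either direction. These 3 of 17 genes stand beside 5.13% of all genes called higher. Without 1 steer, the number of the family past the threshold ranged from 0 to 4. The UNC93 genes UNC93A and UNC93B1 had log2 fold changes of 0.79 (SE 0.358) and -0.01 (SE 0.117).

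The SR proteins, which bind exons and guide the choice of splice sites, had negative log2 fold changes in 12 of 13 genes, with a median of -0.33. SRSF3, SRSF7 and SRSF9 fell, by log2 fold changes of -0.44 (SE 0.129, adjusted p = 0.0331, edgeR), -0.47 (SE 0.148, adjusted p = 0.0418, edgeR) and -0.59 (SE 0.180, adjusted p = 0.0366, edgeR). Beside these 3 of 13 genes, 8.37% of all genes were called lower. The number of SR proteins past the threshold ranged from 0 to 7 without 1 steer. SRSF2 lay near the middle of the list. For casein against water 0 of the 90 genes tested over the 6 lists passed the threshold in edgeR.

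**Figure D5:**
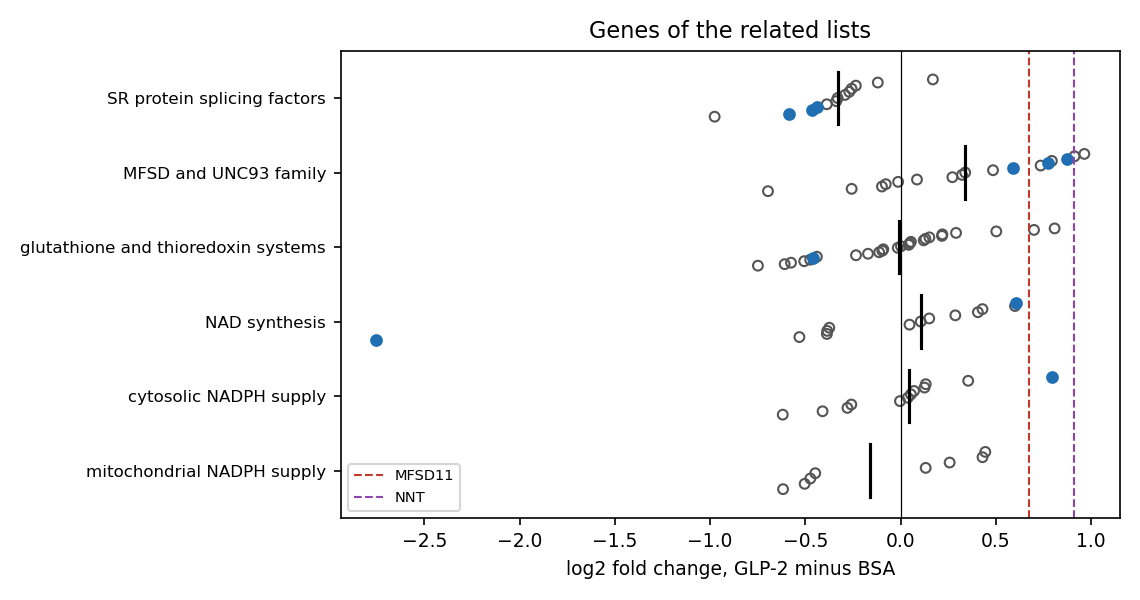
Log2 fold change (GLP-2 minus BSA, x axis) of each tested gene in 6 related lists, filled where the adjusted p in edgeR was at most 0.05, with the list median as a black bar and MFSD11 (red) and NNT (purple) as dashed lines. The MFSD and UNC93 family lies mostly above 0 (median 0.34) and the SR proteins mostly below (median -0.33), while those of mitochondrial NADPH supply run from -0.62 to 0.44.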

How the data were processed

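RNA of scraped mid-jejunal mucosa was sequenced as strand-specific poly-A libraries, 1 per steer. Following the paper and the submitters' processing notes, the authors aligned reads to ARS-UCD1.2 with HISAT2 2.0.5, assembled with StringTie 1.3.3b and deposited raw gene counts made with featureCounts 1.5.0-p3. FPKM values deposited by the authors were used here for levels between genes and as an alternative. A further GLP-2 steer was not analysed here. By the paper, a control steer was not sequenced because of low RNA integrity, and integrity varied among the other samples. RNA integrity did not enter any model here.

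Computation was in R 4.3.3 (edgeR 4.0.16; limma 3.58.1 and DESeq2 1.42.0 for alternatives). Genes passing filterByExpr (minimum count 10) were scaled by TMM and tested over the whole table by quasi-likelihood in edgeR, with p-values adjusted after Benjamini and Hochberg at 0.05. The effects of GLP-2 (against BSA) and of casein (against water) compared pooled groups (13928 and 14096 genes), and a model of 4 treatments (15086 genes) gave pairwise contrasts and the interaction. Log2 CPM uses a prior count of 2. Correlations used permutation tests of 100000 resamples. Exact tests served the sets of 6 or 7 steers, those of a casein infused treatment alone or on 1 side of a gap. The splits by gaps and the values for casein infused steers alone were added after the values had been seen.

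MFSD11 and NNT, the gene lists, the markers and the alternatives were chosen with earlier results of these data known. Also named were neighbours within 100 kb, the 5 genes most alike by each measure, and list genes past the threshold, at most 4 in each direction, or the 2 most abundant where none passed. A few further genes are named as examples. The values of 1 list gene are not reported here. The procedure was tested on simulated data. Promoter sequences were not used here. Replicate numbers were checked as pairs: once treatment means were removed, libraries of the same block correlated at 0.0290 on average (30 pairs) and those differing in both block and treatment at -0.00584 (151 pairs), and the block served as an alternative only.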

Additional observations from a re-analysis of the deposited data

How the results depend on the processing

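The log2 differences of MFSD11 and NNT between GLP-2 and BSA kept their sign under all 12 alternatives and in all 22 fits without 1 steer. With the follicle score as covariate MFSD11 moved to 0.37, and the differences between GLP-2 and control to 0.53 for MFSD11 and 0.46 for NNT. Without 1 steer they lay from 0.61 to 0.73 for MFSD11 and from 0.82 to 0.99 for NNT, between GLP-2 and control from 0.78 to 1.00 and from 0.87 to 1.19, and between casein + GLP-2 and casein from 0.43 to 0.56 and from 0.67 to 0.91. No result of casein or the interaction for the 2 genes passed the threshold under any alternative, except that the sign of the near-zero values of NNT turned: for casein against water to -0.000147 without a filter on low counts and to -0.14 with the follicle score, with values from -0.0901 to 0.155 without 1 steer, for the interaction to 0.0315 and for casein against control to -0.11, both with the follicle score, and for casein + GLP-2 against GLP-2 from -0.23 to 0.10 without 1 steer. The cause was not tested.

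The number of genes called between GLP-2 and BSA was 689 with the replicate block, 2999 in DESeq2 and 0 with the follicle or the villus score as covariate, and from 634 to 3516 without 1 steer. It fell by more than 1.5 times without control replicates 1, 3 and 5 (742, 665 and 986), casein replicates 1 and 3 (980 and 1230), GLP-2 replicates 3 and 6 (903 and 838) and casein + GLP-2 replicates 1, 2 and 3 (895, 1077 and 634), and rose as much without control replicate 2 (3516) and casein replicate 6 (2892). Of the related lists, 19 genes passed with at least 10 counts in every steer, 2 with the block, 23 in DESeq2, 0 with either covariate and from 2 to 25 without 1 steer, within 1.5 times of the 10 in 8 of these 22 fits. DESeq2 called 5 genes between casein and water. The replicate block moved the log2 difference of MFSD11 to 0.70 and of NNT to 0.90. It did not bring any tested value of the 2 genes past the threshold, other than r of MFSD11 with MS4A1 in GLP-2 injected steers (-0.74) and of NNT with LCT there (0.79).

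The correlations were the least stable results. In BSA injected steers, NNT and LCT lay from 0.78 to 0.89 without 1 steer, and lost the threshold without casein replicate 1, 3, 4 or 6 (adjusted permutation p up to 0.0673), without the 2 farthest steers (0.71), and in the lower set of LCT (-0.19). Without casein replicate 1, r was 0.85 (adjusted permutation p = 0.0505), above the 0.82 of all 11 steers. Each such fit had 1 steer fewer and was adjusted together with the unchanged p-values of the other injection. A threshold lost without 1 steer therefore need not mean a weaker r. NNT and MS4A1 lay from -0.85 to -0.79, and lost it without casein replicate 1, 3, 4 or 6 or control replicate 3 (adjusted permutation p up to 0.0673), without the 2 farthest (-0.79), and below the gap (-0.59). MFSD11 and NNT lay from 0.58 to 0.93, and lost it without each of 9 of the 11 steers, all but casein replicate 2 and control replicate 2, without the 2 farthest (0.41), and without control replicate 3, which the gap in NNT sets apart (0.58). MFSD11 and MS4A1 lay from -0.80 to -0.65, passed on the FPKM scale (-0.75), and turned to 0.17 below the gap, while MFSD11 and LCT lay from 0.47 to 0.69. In the 6 casein steers alone NNT with LCT (0.91), NNT with MS4A1 (-0.83) and MFSD11 with NNT (0.58) did not pass. In GLP-2 injected steers, NNT and LCT lay from 0.67 to 0.83 and passed on the FPKM scale (0.73) and with infusion means removed (0.78). There MFSD11 and NNT lay from -0.0508 to 0.31, MFSD11 and LCT from 0.11 to 0.51, MFSD11 and MS4A1 from -0.54 to -0.31, and NNT and MS4A1 from -0.42 to -0.18. For body weight and library total in BSA injected steers, the sign turned with block means removed for MFSD11 (-0.25 and 0.26) and NNT with body weight (-0.0590), and NNT with library total was -0.0151 with DESeq2's size factors, -0.0168 on the FPKM scale, -0.00650 without the 2 farthest steers, -0.13 in the casein steers alone and from -0.0941 to 0.22 without 1 steer. Between 11 steers, only large correlations can pass a threshold adjusted over 18 relations.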
